A study of Homo sapiens with 9 samples.

Results

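The 7 members described here are genes of hyaluronan metabolism: CEMIP, CEMIP2, the synthases HAS2 and HAS3, the hyaluronidases HYAL2 and HYAL3, and HMMR-AS1, an RNA antisense to the gene of a hyaluronan receptor. They are 7 of 60651 gene rows of the count table. They were chosen by name, with the values of these libraries in view, so their values are a description and no test on them is used as support. All 7 have a row, and 5 reached a mean of 1 CPM (a count scaled for library size and composition), the level below which values rest on few reads. HAS2 and HMMR-AS1 did not.

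Hyaluronan is a long unbranched sugar polymer of the extracellular matrix, built at the plasma membrane by the HAS synthases from UDP-glucuronic acid and UDP-N-acetylglucosamine. CEMIP (also called KIAA1199 or HYBID) takes part in its breakdown. It is cut by hyaluronidases such as HYAL2 at the cell surface and HYAL1 in lysosomes, where glycosidases finish the breakdown. Cells bind it through CD44 and HMMR (RHAMM). CEMIP is often raised in colorectal tumours.

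The cells were HCT116, an established line from a human colorectal carcinoma, and their RNA gave 9 libraries in 3 labelled groups of 3. The shCTRL DMSO libraries carried a control hairpin RNA and were given the solvent DMSO. The shSLC6A3 DMSO libraries carried a hairpin against SLC6A3, the dopamine transporter gene, with DMSO. The shCTRL VXN libraries carried the control hairpin with an agent that the labels abbreviate as VXN and do not spell out. Whether hairpin cells were clones or pools is not given in the sources used here. No label says that replicates were separate cultures, so p-values cover only library-to-library spread, possibly technical. Total counts ranged from 30.25 to 60.22 M per library. The summed level of 8 epithelial markers was 4510 to 5680 CPM, against 0.459 to 1.36 CPM for 6 leukocyte and 0.673 to 1.58 CPM for 4 endothelial markers. For 9 fibroblast and mesenchymal markers it was 19.2 to 47.8 CPM, nearly all from COL1A1, and LUM was at 0 throughout.

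The labels and the authors' deposited comparison tables place libraries in different groups. One of the authors' deposited tables compares shCTRL V and the other shDAT D, each with shCTRL D. They were matched to count columns by rerunning DESeq2: all 38907 p-values of each table agreed within 1e-06. By their labels, the shCTRL V columns are the third shCTRL DMSO library and the third shCTRL VXN library with shSLC6A3 DMSO replicate 1. The shDAT D columns are shCTRL DMSO replicates 1 and 2 and shCTRL VXN replicate 1. The shCTRL D columns are shSLC6A3 DMSO replicates 2 and 3 and shCTRL VXN replicate 2. Libraries are named here by their labels, the tables by their own names, and no library's treatment was read from its values.

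Promoter sequences are printed for the members whose levels differed most between libraries, from 250 bases before to 50 bases after the RefSeq start on GRCh38.p14, read 5′ to 3′ on the gene's strand. Letters in capitals mark matches to 7 motifs chosen after the sequences were seen, searched on both strands. They are the AP-1 motif TGANTCA, the cAMP response element TGACGTCA, its variant TGACGTG, the E-box CACGTG, the TATA box TATAAA, the GC box GGGCGG and the CCAAT box. No motif's matches overlap those of another in these windows. CEMIP lies at chr15:80779120-80779419 (plus strand), HAS3 at chr16:69107290-69107589 (plus strand) and the first of 2 HYAL3 windows at chr3:50299356-50299655 (minus strand).
CEMIP: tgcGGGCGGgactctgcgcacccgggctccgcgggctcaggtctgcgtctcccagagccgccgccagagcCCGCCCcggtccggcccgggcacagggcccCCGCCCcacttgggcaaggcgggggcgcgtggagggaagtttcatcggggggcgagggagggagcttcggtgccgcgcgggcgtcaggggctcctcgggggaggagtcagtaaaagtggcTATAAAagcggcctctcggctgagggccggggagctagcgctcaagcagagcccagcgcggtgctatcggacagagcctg
HAS3: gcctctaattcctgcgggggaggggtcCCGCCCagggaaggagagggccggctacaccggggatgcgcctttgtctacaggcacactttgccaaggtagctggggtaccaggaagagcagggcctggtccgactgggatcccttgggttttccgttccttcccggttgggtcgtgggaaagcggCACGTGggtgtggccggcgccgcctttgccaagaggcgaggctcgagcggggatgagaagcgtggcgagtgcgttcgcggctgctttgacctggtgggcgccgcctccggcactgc
HYAL3: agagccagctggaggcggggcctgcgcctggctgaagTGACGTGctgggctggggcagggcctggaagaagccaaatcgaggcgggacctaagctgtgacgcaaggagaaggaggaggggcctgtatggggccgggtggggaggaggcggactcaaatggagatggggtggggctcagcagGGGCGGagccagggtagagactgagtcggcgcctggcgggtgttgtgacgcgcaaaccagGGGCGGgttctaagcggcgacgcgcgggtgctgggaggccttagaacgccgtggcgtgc

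The CEMIP window is 73.0% G and C, against a median of 58.7% over the 35116 windows. It holds TATAAA from position -30 relative to the start, a motif found in 11.5% of all windows, and 3 GC boxes, a motif found in 45.0%. The HAS3 window holds CACGTG from position -66, in 7.26% of windows, and 1 GC box. That window lies inside the HAS3 gene of GENCODE v29, which begins upstream at 69105564, so its positions refer to the RefSeq start only. The HYAL3 window holds TGACGTG from position -213, in 1.97% of windows, and 2 GC boxes, and RefSeq gives NAA80 the same window. The AP-1 motif (7.71% of windows), the cAMP response element (1.85%) and the CCAAT box (34.6%) had no match in these 3 windows. Of the 7 members, 6 had a window. These matches describe letters only.

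HAS3, the main hyaluronan synthase expressed here (ENSG00000103044.11, GRCh38 chromosome 16, 69105564 to 69118719, plus strand), stood at 226, 230 and 41.0 CPM in shCTRL DMSO replicates 1 to 3. It stood at 41.3, 193 and 191 CPM in shSLC6A3 DMSO and at 277, 246 and 45.4 CPM in shCTRL VXN. One library of each labelled group was low, and these are the 3 shCTRL V columns. The other 6 libraries ranged from 191 to 277 CPM with no overlap with the low ones. HAS3 had, in the authors' deposited shCTRL V table, a log2 fold change of -2.31 (SE 0.11, DESeq2 adjusted p = 2.19e-89), and the unshrunken rerun gave a 5.01-fold lower level. Its value in the authors' deposited shDAT D table was 0.11 (SE 0.10, DESeq2 adjusted p = 0.215). Both deposited tables share the shCTRL D columns. CHTF8, on the opposite strand, shares 365 exon bases (6.9%) with HAS3 and was at 73.5 to 88.3 CPM over the libraries. In the authors' deposited shCTRL V table CHTF8 had -0.2 (SE 0.06, DESeq2 adjusted p = 0.00232). The kit does not mark strand, and the part of CHTF8 in the HAS3 values was not tested.

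HAS2 (ENSG00000170961.7, chromosome 8, 121612116 to 121641390, minus strand), a synthase of large hyaluronan, was near the limit of detection with 0 to 4 counts per library. A count of 0, in shCTRL VXN replicate 1, allows up to 3 counts or 0.0983 CPM, counting error only. HAS1, the remaining synthase, had 0 counts in all 9 libraries, and HAS2-AS1, antisense to HAS2, had 24 counts over all of them. No direction can be given for these genes at this depth.

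CEMIP (ENSG00000103888.17, chromosome 15, 80779343 to 80951776, plus strand) fell at 2 levels. It stood at 16.2, 16.8 and 49.4 CPM in shCTRL DMSO, at 51.3, 56.4 and 59.4 CPM in shSLC6A3 DMSO and at 19.0, 18.2 and 57.0 CPM in shCTRL VXN. Counts behind these values were 581 to 3356 per library. The 4 low libraries, at 16.2 to 19.0 CPM, were shCTRL DMSO replicates 1 and 2 and shCTRL VXN replicates 1 and 2. The 5 high libraries, at 49.4 to 59.4 CPM, were all of shSLC6A3 DMSO and the third replicate of each other group. The label means were 27.5 ± 19.0 CPM in shCTRL DMSO, 55.7 ± 4.07 CPM in shSLC6A3 DMSO and 31.4 ± 22.2 CPM in shCTRL VXN (SD, n = 3 each).

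CEMIP2 (TMEM2, a transmembrane relative that has been reported to cut hyaluronan, ENSG00000135048.14, chromosome 9, 71683366 to 71816690, minus strand) split the same libraries with a smaller gap. It was 24.4, 25.4 and 32.5 CPM in shCTRL DMSO, 35.3, 33.8 and 33.4 CPM in shSLC6A3 DMSO and 27.4, 25.9 and 37.4 CPM in shCTRL VXN. The 4 libraries low for CEMIP were at 24.4 to 27.4 CPM for CEMIP2, and the 5 others at 32.5 to 37.4 CPM.

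CEMIP had, in the authors' deposited shDAT D table, a log2 fold change of -1.05 (SE 0.53, DESeq2 adjusted p = 0.0366), with an unshrunken rerun value of -1.40 (SE 0.43), or 2.64-fold lower. The shCTRL D columns behind it were 56.4, 59.4 and 18.2 CPM, so 1 of the 3, shCTRL VXN replicate 2, stood with the shDAT D columns, at 16.2 to 19.0 CPM, and the ranges overlap. CEMIP was the 1 member called, out of 4 with an adjusted p. The background was 6.62% of 10403 features called, with 5.62% called lower. Since the members were chosen with these values in view, nothing is read from the comparison. CEMIP2 had -0.19 (SE 0.14, DESeq2 adjusted p = 0.0906) in the authors' deposited table.

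Of the 6 libraries of this contrast, shCTRL VXN replicate 2 was the only 1 whose removal kept the CEMIP call. The DESeq2 rerun without it gave an unshrunken log2 fold change of -1.79 (SE 0.08, adjusted p = 2e-100) for CEMIP, against -1.40 with no library left out. On the same unshrunken scale CEMIP2 went from -0.30 to -0.43 (DESeq2 adjusted p = 5.3e-07) and HAS3 from 0.20 to 0.31 (DESeq2 adjusted p = 0.000381). In reruns without shCTRL VXN replicate 2, the shCTRL D side holds only shSLC6A3 DMSO replicates 2 and 3. These 2 were close to each other, with a chi-square per degree of freedom of 1.46. Adjusted p-values of these reruns thus measure a small library-to-library spread, possibly technical. Without any other single library CEMIP was between -1.14 and -1.47 and was not called, with adjusted p from 0.416 to 1, and without shCTRL DMSO replicate 1 no adjusted p was given. With no library left out, edgeR gave -1.37 (adjusted p = 0.187), and DESeq2 without independent filtering an adjusted p of 0.115. In the authors' deposited shCTRL V table, CEMIP had 0.12 (SE 0.34, DESeq2 adjusted p = 0.754) and CEMIP2 0.14 (SE 0.12, adjusted p = 0.343). The unshrunken rerun value of CEMIP in that contrast was 0.20 (SE 0.43). It turned to -0.18 (SE 0.08, DESeq2 adjusted p = 0.0476) without shCTRL VXN replicate 2. MESD, on the opposite strand, shares 224 exon bases (2.9%) with CEMIP, and the kit does not mark strand. MESD was 63.4 to 68.5 CPM in the 4 low libraries and 81.5 to 92.5 CPM in the 5 high ones, and its part in the CEMIP values was not tested.

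**Figure D1:**
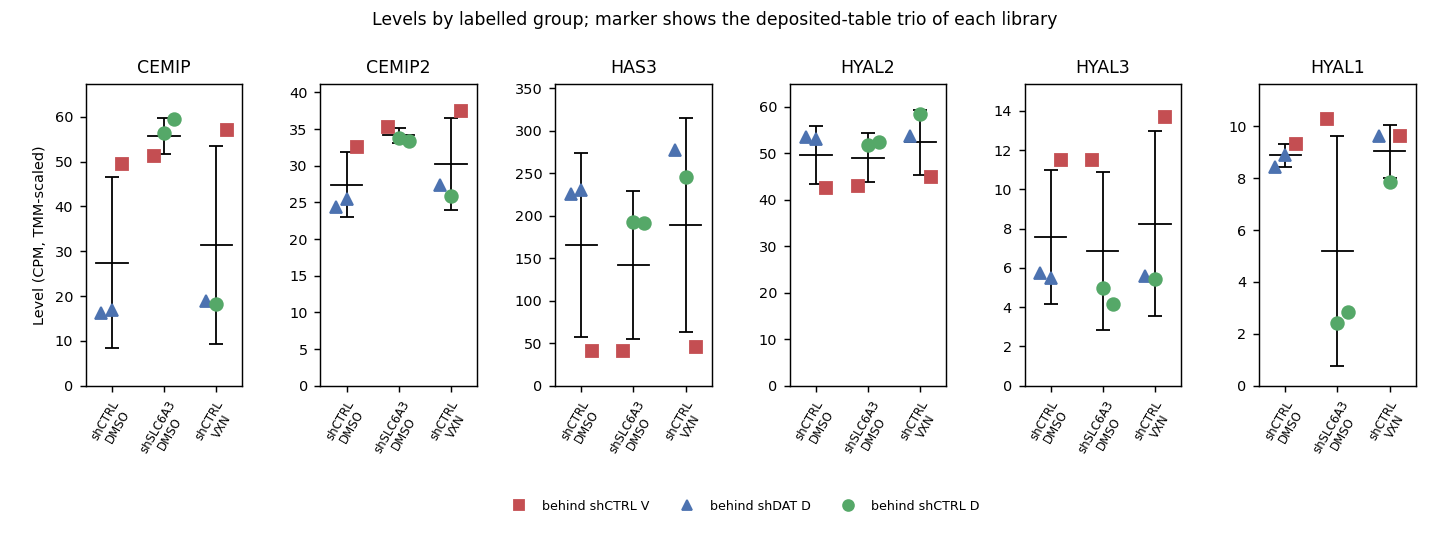
Levels in CPM of the 5 members at a mean of 1 CPM or more, and of HYAL1, by labelled group. Each point is a library, marked by the deposited table side its column belongs to, and the bars give mean and SD of the 3 libraries. CEMIP is at 16.2 to 19.0 CPM in 4 libraries and at 49.4 to 59.4 CPM in 5, while HAS3 is low, at 41.0 to 45.4 CPM, in the 3 shCTRL V columns.

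**Figure D2:**
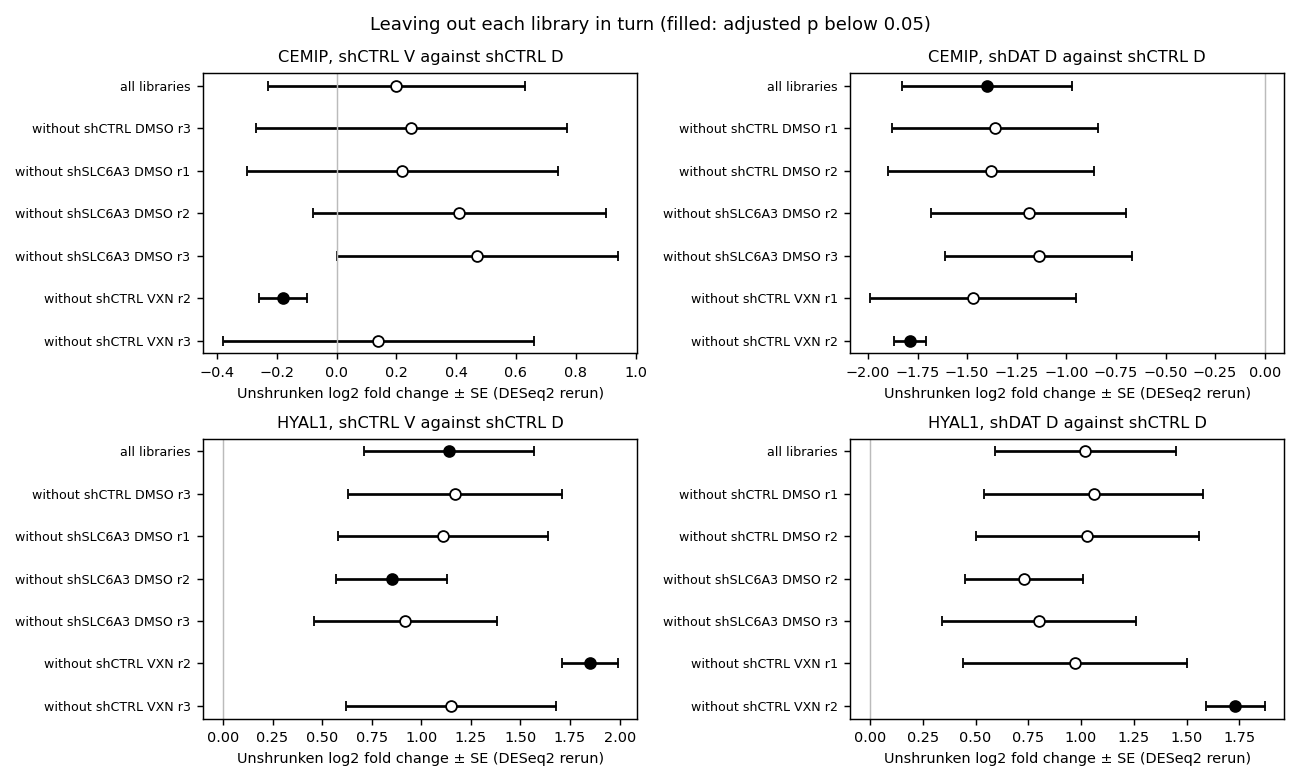
Unshrunken log2 fold change (x axis, with SE) of CEMIP and HYAL1 in DESeq2 reruns of both deposited contrasts, with all libraries and without each in turn. Filled points have an adjusted p below 0.05. The smallest SE in all 4 panels is that without shCTRL VXN replicate 2, 0.08 for CEMIP and 0.14 for HYAL1.

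HYAL3 (ENSG00000186792.17, chromosome 3, 50292831 to 50299468, minus strand), a hyaluronidase family member with little known activity of its own, was higher in the 3 libraries where HAS3 was low. It stood at 5.72, 5.48 and 11.5 CPM in shCTRL DMSO, at 11.5, 4.96 and 4.18 CPM in shSLC6A3 DMSO and at 5.60, 5.46 and 13.7 CPM in shCTRL VXN. The shCTRL V columns did not overlap the other 6 libraries. In the authors' deposited shCTRL V table its log2 fold change was 1.28 (SE 0.13, DESeq2 adjusted p = 4.37e-22), and 0.07 with no adjusted p in the authors' deposited shDAT D table. HYAL3 shares 248 exon bases (12.2%) with NAA80 and 43 with IFRD2 on the same strand, so reads could be split between them. In the authors' deposited shCTRL V table, NAA80 had 0.39 (DESeq2 adjusted p = 0.0133) and IFRD2 -0.48 (DESeq2 adjusted p = 2.72e-05).

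HYAL2 (ENSG00000068001.14, chromosome 3, 50317790 to 50322906, minus strand), a GPI-anchored hyaluronidase, varied least of the 5, between 42.4 and 58.5 CPM. It was 42.4, 42.9 and 44.8 CPM in the shCTRL V columns and 51.8 to 58.5 CPM in the other 6. The authors' deposited shCTRL V table gave a log2 fold change of -0.34 (SE 0.07, DESeq2 adjusted p = 1.13e-06), and that for shDAT D gave -0.03 (SE 0.06, adjusted p = 0.639). TUSC2, which shares 509 exon bases (11.2%) with HYAL2, had -0.02 (adjusted p = 0.9) in the authors' deposited shCTRL V table.

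In that contrast 1 member was called higher and 2 lower of 5 with an adjusted p, against a background of 44.0% of 24274 features called, 21.4% higher and 22.7% lower. With so many features called, and with the members chosen in view of these values, the share says nothing of the members. Each DESeq2 rerun leaving out 1 library kept these 3 calls, with HAS3 between -2.38 and -2.21, HYAL3 between 1.21 and 1.38 and HYAL2 between -0.37 and -0.30. The 3 shCTRL V columns also had summed levels of 6 markers of dividing cells of 233 to 270 CPM, against 1420 to 1660 CPM in the other 6 libraries. The part of these in the members' values was not tested. In bulk RNA, fewer cells of a type and less RNA per cell cannot be told apart.

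HMMR-AS1 (ENSG00000251018.2, chromosome 5, 163483065 to 163494058, minus strand) had 0 or 1 count per library and 3 in all. Each library's count is within what a count of 0 allows. HMMR, on the opposite strand, shares 113 exon bases (11.8%) with it. HMMR, a hyaluronan receptor that also works at the mitotic spindle, was 83.2, 87.3 and 25.9 CPM in shCTRL DMSO, 25.4, 101 and 99.1 CPM in shSLC6A3 DMSO and 73.8, 69.0 and 19.1 CPM in shCTRL VXN. Its low libraries were the shCTRL V columns, with a log2 fold change of -1.94 (SE 0.16, DESeq2 adjusted p = 5.98e-33) in the authors' deposited table.

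Scaled for gene length (TPM, the share of transcripts on a fixed total), HAS3 had the highest median level of the members, 120 TPM (25.1 to 168). HYAL2 followed with 37.7 TPM (30.2 to 44.6), then CEMIP with 21.0 TPM (7.16 to 25.5), CEMIP2 with 10.9 TPM (8.54 to 12.7) and HYAL3 with 9.32 TPM (6.74 to 22.0). Of neighbours in this order, the ranges of HYAL2 and CEMIP did not overlap, and those of HAS3 and HYAL2, CEMIP and CEMIP2, and CEMIP2 and HYAL3 did. HAS2, at a median of 0.0336 TPM, lay far below them. In the 3 shCTRL V columns HAS3, at 25.1 to 28.1 TPM, was below HYAL2 at 30.2 to 32.3 TPM, whereas in the other 6 it was above. In the 4 libraries low for CEMIP, CEMIP, at 7.16 to 8.26 TPM, was below both CEMIP2 (8.54 to 9.32 TPM) and HYAL3 (8.85 to 9.49 TPM), so its place in the order of medians is that of the 5 high libraries.

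By the labelled groups no member was called. The CEMIP log2 fold change was 1.02 (SE 0.53, edgeR adjusted p = 0.978) for shSLC6A3 DMSO against shCTRL DMSO and 0.19 (SE 0.75, edgeR adjusted p = 1) for shCTRL VXN against shCTRL DMSO, where the SE is from the unpaired spread of log2 CPM. With same-numbered libraries assumed to be pairs, CEMIP, CEMIP2, HAS3 and HYAL2 were each higher in the VXN library in 3 of 3 pairs, and HYAL3 in 1 of 3. The share of all features higher in every pair was not computed, so nothing about the members is read from this. Some rises were small, such as 53.4 to 53.6 CPM for HYAL2 in pair 1. Pair 2 sets a shDAT D column against a shCTRL D column. With the pairs as a block in edgeR, CEMIP was 0.19, CEMIP2 0.13, HAS3 0.20 and HYAL2 0.07, each at an adjusted p of 1. For shSLC6A3 the CEMIP value ranged from 0.75 to 1.76 when each library was left out. The highest was without shCTRL DMSO replicate 3 (edgeR adjusted p = 0.449). The background was 0% of 20402 features with edgeR for shSLC6A3 (930 at an unadjusted p under 0.05, and 0 with DESeq2). For VXN it was 0.00980%, 2 features, both lower, which were the miRNA genes MIR6797 and MIR6856, named after their values were seen. With the replicate number as a block, 0 features were called for VXN.

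Of 42 other genes of the hyaluronan pathway, 41 had a row, 17 reached a mean of 1 CPM, and 22 had an adjusted p in the authors' deposited shCTRL V table, where 7 were called higher and 6 lower. The share called over all its features was 44.0%, 21.4% higher and 22.7% lower. The median log2 fold change of those 22 was 0.16, against -0.002 over all features. Among the enzymes that make the UDP-sugars, 4 of 7 were higher and 1 lower, beside the same 21.4% and 22.7% of all features. GFPT1, the first and rate-limiting enzyme of the hexosamine pathway, was at 576, 582 and 600 CPM in the shCTRL V columns and at 103 to 139 CPM in the other 6. Its log2 fold change was 2.16 (SE 0.11, DESeq2 adjusted p = 6.27e-86) in the authors' deposited table. GFPT2, its relative, was lower, at -0.99, and UGDH, which makes UDP-glucuronic acid, higher, at 0.56, in the authors' deposited table. PGM3 had 0.52 and UAP1 0.31 there, both later hexosamine enzymes.

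Among lysosomal glycosidases, HEXA, which encodes a hexosaminidase subunit, was higher (0.54) and GUSB, which removes glucuronic acid, lower (-0.77) in the authors' deposited shCTRL V table. HYAL1 was 8.43, 8.90 and 9.33 CPM in shCTRL DMSO, 10.3, 2.42 and 2.86 CPM in shSLC6A3 DMSO and 9.63, 7.85 and 9.64 CPM in shCTRL VXN. Only shSLC6A3 DMSO replicates 2 and 3 were low, and the rest were at 7.85 to 10.3 CPM. Its value in the authors' deposited shCTRL V table was 0.89 (SE 0.44, DESeq2 adjusted p = 0.0206). The unshrunken DESeq2 rerun gave 1.14 with no library left out, 1.85 without shCTRL VXN replicate 2 (adjusted p = 4.21e-39) and 0.85 without shSLC6A3 DMSO replicate 2 (adjusted p = 0.00707). The call was lost without shSLC6A3 DMSO replicate 1 or 3, or without the third library of either shCTRL group, at adjusted p from 0.0692 to 0.104.

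Among 12 receptors and binding proteins, 5 had an adjusted p in the authors' deposited shCTRL V table, and CD44 (-0.58, SE 0.07) and HMMR were lower. CD44 was 398 to 418 CPM in the shCTRL V columns and 545 to 617 CPM elsewhere. Of 14 matrix partners, 6 had an adjusted p in the authors' deposited shCTRL V table. VCAN, the proteoglycan versican, was lower (-1.20, SE 0.13), and ITIH4, of the inter-alpha-trypsin inhibitor heavy chain family, higher (1.19, SE 0.24). In the authors' deposited shDAT D table, 1 of 14 genes with an adjusted p was called, HABP4, an RNA-binding protein first found as a hyaluronan binder, higher at 0.22 (SE 0.10, DESeq2 adjusted p = 0.0499). The share called over all its features was 6.62%. In DESeq2 reruns without shCTRL VXN replicate 2, 4 of these genes were called higher and 8 lower, among 7890 features called (3114 higher and 4776 lower). The share of tested features called in that rerun was not computed, so nothing about these genes is read from the counts. Without any 1 of the other 5 libraries, 0 of these genes were called, and without shCTRL DMSO replicate 1 HABP4 had no adjusted p.

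**Figure D3:**
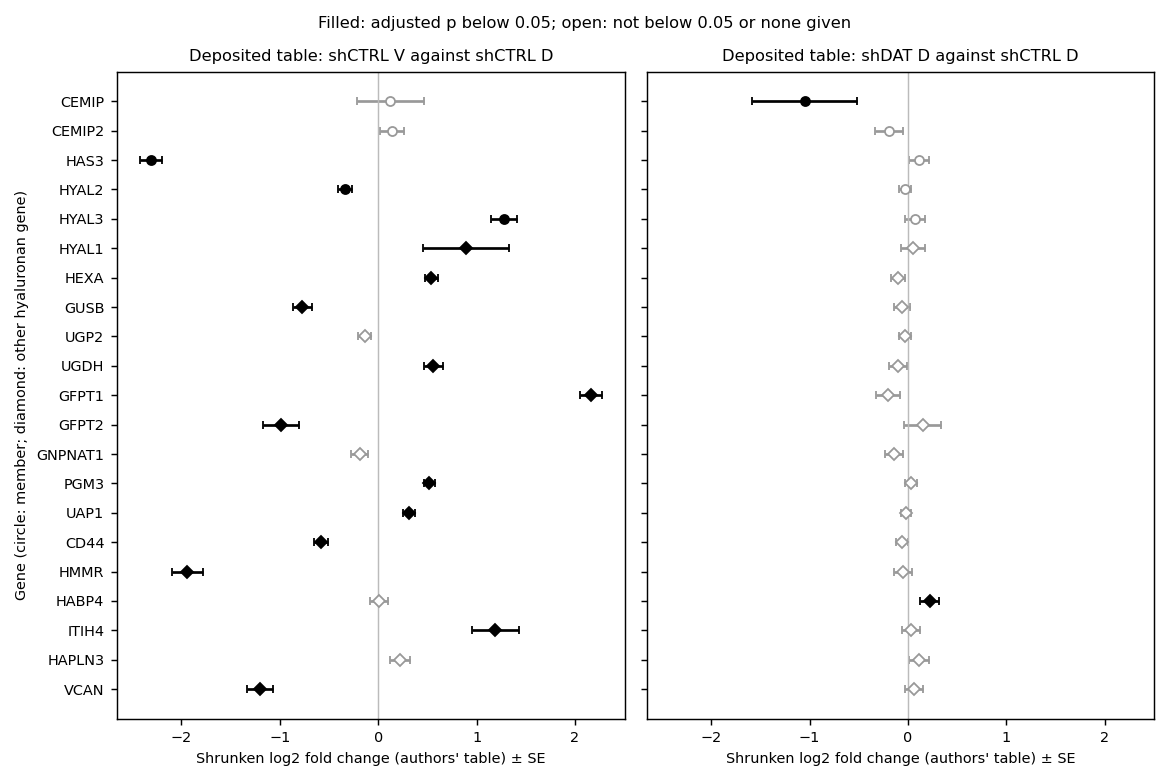
Shrunken log2 fold change (x axis, with SE) of members (circles) and other hyaluronan genes at a mean of 1 CPM or more (diamonds) in the authors' deposited tables. Filled points have an adjusted p below 0.05. HAS3 (-2.31) and GFPT1 (2.16) lie farthest apart for shCTRL V, and CEMIP (-1.05) and HABP4 (0.22) are the filled points for shDAT D.

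**Figure D4:**
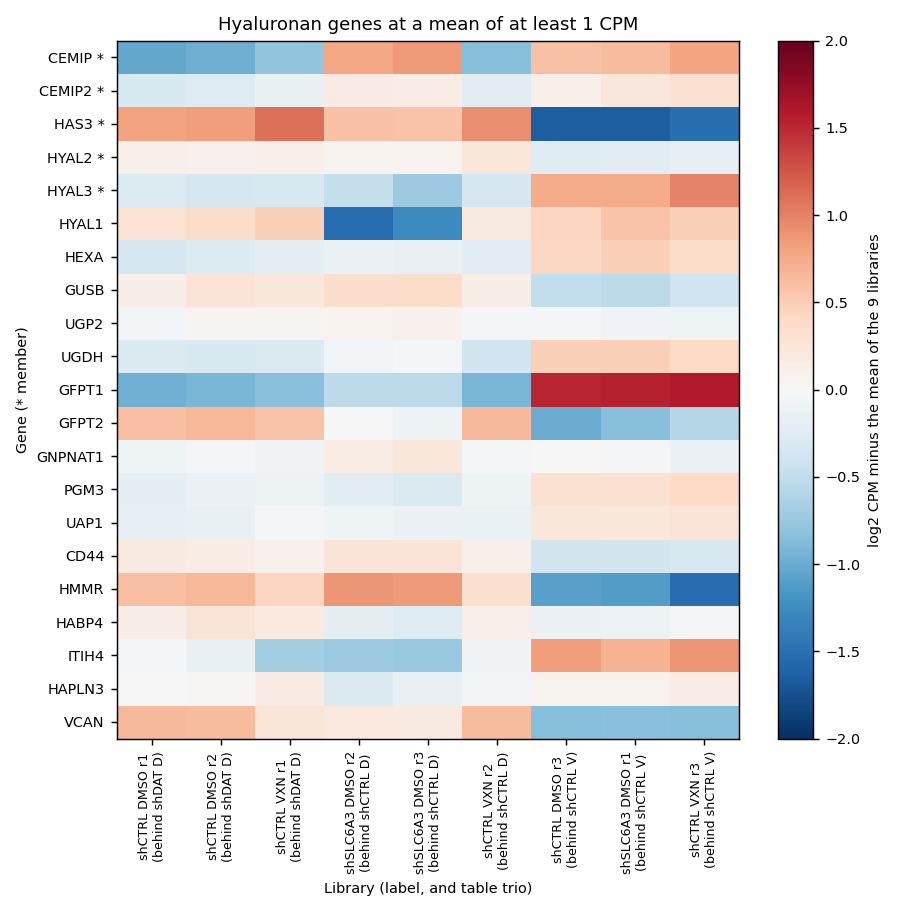
Difference of log2 CPM from its mean over the 9 libraries (colour) for hyaluronan genes at a mean of 1 CPM or more, with libraries ordered by deposited table side. The 3 shCTRL V columns are low for HAS3 and high for GFPT1, whereas CEMIP is low in shCTRL VXN replicate 2 and high in the other 2 shCTRL D columns.

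The protein-coding genes closest to CEMIP in their pattern over the 9 libraries, of 10813 compared, were RPN1, MTERF4, ITGB5, SHMT2 and EMC10, with Pearson r of 0.994 to 0.996 in log2 CPM. Closest to CEMIP2 were METTL4, PSMA1 and ZBTB8A (0.986 to 0.989). Closest to HAS3 were EMP2, GGA2 and PRDX3 (0.998 to 0.999), to HYAL2 GCN1, SLC6A8 and HUWE1 (0.992 to 0.997), and to HYAL3 MYO7A, MRAS and RAB17 (0.995 to 0.998). The libraries fall into sets, so these values describe a shared split of few sets, and no p is given. Ranked by Spearman's rho instead, 0 of the 5 names for CEMIP stayed, 1 of 3 for CEMIP2 and HAS3, and 0 of 3 for HYAL2 and HYAL3.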

How the data were processed

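RNA was sequenced from 9 HCT116 libraries (TruSeq RNA v2 kit). Per the submitters' processing notes, reads were processed with fastp 0.20.1, FastQC 0.11.9, STAR and DESeq2 1.34.0 on GRCh38. The sources used here name neither the counting program nor its annotation. The deposited counts are unnormalised. The deposited log2 fold changes are shrunken, and the deposited p-values and base mean signal (normalised counts) come from DESeq2, per the file headers and the rerun.

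Groups came from the labels; the third VXN title spells VNN, and its treatment label was used. edgeR 4.0.16 compared the labelled groups (quasi-likelihood test, TMM, filterByExpr, 20402 features including 914 repeats; R 4.3.3) over all 9 libraries, with Benjamini-Hochberg adjustment and a threshold of 0.05. DESeq2 1.42.0 was the alternative and reran the deposited contrasts. Fits of the deposited contrasts also used all 9 libraries, less any left out. The code was tested on simulated data. CPM are TMM-scaled, with a prior count of 1 for log2 values; TPM used GENCODE v29 exon lengths. Promoters are from RefSeq. Same-numbered shCTRL VXN and shCTRL DMSO libraries deviated together (r = 0.665, 0.702 and 0.885), and the numbers were used as pairs there by assumption. The third library of both groups is a shCTRL V column, so r cannot tell whether any of these libraries pair by number. No 2 libraries agreed within sampling noise. The lowest chi-square per degree of freedom, 1.34, was between shCTRL DMSO replicate 3 and shSLC6A3 DMSO replicate 1, labelled with different hairpins. The shSLC6A3 DMSO replicates 2 and 3 were at 1.46, and shCTRL DMSO replicates 1 and 3 at 286. From shCTRL VXN replicates 1 and 2, shCTRL DMSO replicate 1 was at 8.88 and 8.82, and shCTRL DMSO replicate 2 at 7.35 and 9.98. Named genes are all members, the other pathway genes called in either deposited table at a mean of 1 CPM or more, HMMR, CD44, HAS1, HYAL1 and HAS2-AS1, overlapping neighbours and the closest genes. The members and lists were chosen with earlier results of these data known. Intervals and floors cover counting error only. One named item is not reported here, in text or figures.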

Additional observations from a re-analysis of the deposited data

How the results depend on the processing

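The 10686 calls of the shCTRL V contrast ranged from 9300 to 11490 when each library was left out, with 11139 by edgeR and 10045 by DESeq2 without independent filtering. The 689 calls of the shDAT D contrast became 0 with edgeR and 9 without independent filtering, and ranged from 0 to 7890 when each library was left out. The highest was without shCTRL VXN replicate 2, and the others were 13 or fewer. The cause was not tested. The 2 VXN calls became 20 with DESeq2, and 0 without the count filter, with only the 6 libraries compared, with the replicate block and when each library was left out. For shSLC6A3 against shCTRL DMSO, 0 features were called under every alternative run. There the replicate block gave CEMIP a log2 fold change of 1.29 (edgeR adjusted p = 0.961). Same-numbered libraries deviated with r of -0.67, 0.613 and -0.647, and the numbers were not used as pairs. Replicate 3 of shCTRL DMSO and replicate 1 of shSLC6A3 DMSO are shCTRL V columns, so r cannot tell whether these libraries pair by number. The block changed no call of a member. For shCTRL VXN the CEMIP log2 fold change ranged from -0.56 to 0.93 when each library was left out. The ranges of the 5 expressed members moved by less than the spread between libraries with DESeq2 size factors, and their order was the same without length scaling. HAS2 and HMMR-AS1 are limited by depth.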
